A study of Mus musculus with 6 samples.

Results

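The fibrillar collagens are the 10 genes Col1a1, Col1a2, Col2a1, Col3a1, Col5a1, Col5a2, Col5a3, Col11a1, Col24a1 and Col27a1, taken by symbol from a table of 37309 mouse genes. Each symbol had 1 row. RNA was sequenced from cultured smooth muscle cells taken from the descending aorta. All came from Immorto mice, which carry a conditional large T antigen of simian virus that keeps their cells dividing, so both groups share that background. The DAPT group was kept for 3 days with DAPT at 50 uM, an inhibitor of gamma-secretase, the protease that frees the active intracellular part of Notch receptors. The vehicle group was kept for the same time with DMSO alone. Each group had 3 libraries, and nothing in the labels says that they came from separate cultures or animals. The p-values therefore cannot be taken to measure spread between cultures or animals. The main test also draws the variance of each gene toward that of genes of similar level. Read totals ran from 12159930 to 13488512 in DAPT libraries and from 10702548 to 14503665 in vehicle libraries.

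Fibrillar collagens are the rope-like collagens of connective tissue. Their chains wind around each other into a triple helix, and the helices are cut free of their end pieces outside the cell and pack into fibrils. Type I (Col1a1 and Col1a2) and type III (Col3a1) form the bulk of the fibrils of the artery wall. Type V (Col5a1, Col5a2 and Col5a3) lies within those fibrils and is needed to start them and to limit their width. Type II (Col2a1) and type XI (Col11a1) build the fibrils of cartilage, while type XXIV (Col24a1) and type XXVII (Col27a1) are minor members known mainly from bone and cartilage. The study's title sets the smooth muscle wall against a cartilage fate, which makes the split between arterial and cartilage chains the question that the family bears on.

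Cells kept with DAPT had less RNA of 7 of the 9 fibrillar collagen genes that could be tested, and all 9 log2 changes were negative. The main chains of the artery wall, Col1a1, Col1a2, Col3a1, Col5a1 and Col5a2, fell by 24.4% to 39.1%. The cartilage chain Col11a1 fell by 52.7% and Col24a1 by 42.1%. Col5a3 and Col27a1 did not pass the test, and Col2a1 lay below the filter on low values in both groups. A gene was tested when its normalised read count was at least 10 in at least 3 of the 6 libraries, and it was called at an adjusted p below 0.05 in limma, fitted to log2(normalised count + 1) over all 14906 genes that met that filter. In that fit 18.1% of genes were called in either direction and 8.91% were called lower, against 7 of the 9 tested members. The median log2 change was -0.53 over the 9 tested members and 0.0009 over all tested genes. In bulk RNA, fewer cells of one kind and less RNA per cell cannot be told apart.

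**Figure D1:**
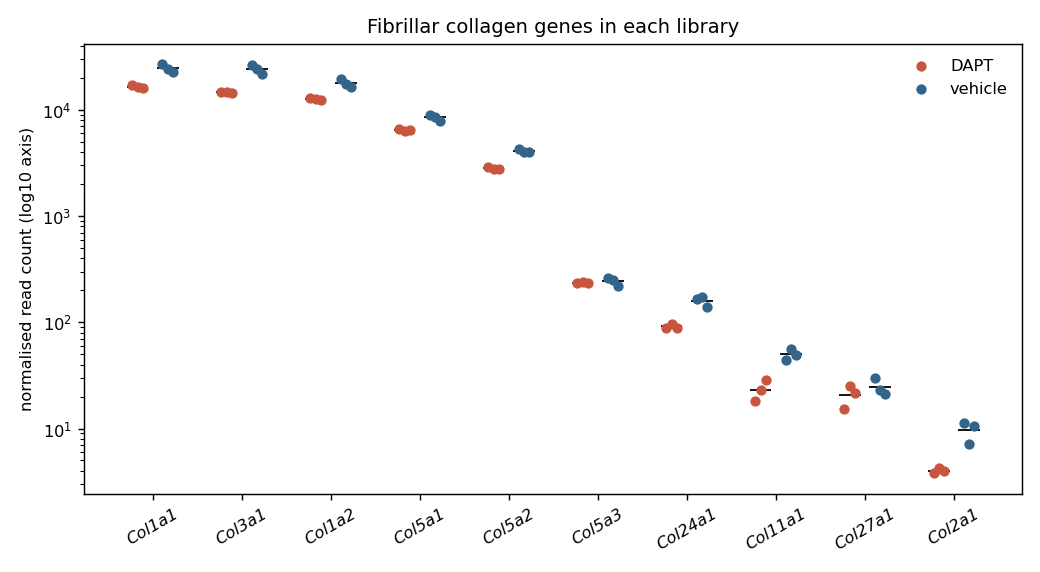
Normalised read count on a log10 axis for each of the 10 fibrillar collagen genes, ordered by their vehicle mean, with 1 point per library (3 DAPT and 3 vehicle) and a black bar at each group's mean. In 8 genes all DAPT points lie below all vehicle points; in Col5a3 and Col27a1 the groups overlap.

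The upstream sequences of 4 members are shown because these genes span the range of responses: Col3a1 fell most among the abundant chains, Col11a1 fell most among the 9 tested members, and Col5a1 and Col5a3 are chains of the same collagen type of which the first fell and the second did not pass. They are taken from RefSeq on GRCm38.p6, a later build than the mm9 named for the deposited table, were matched by symbol (7 of the 10 members matched), and run 5′ to 3′ on the strand of the gene, ending before its outermost annotated start. Of the 250 bases before the RefSeq start, the last 44 of Col5a1, 50 of Col5a3 and 61 of Col11a1 lie beyond that point and are not printed, while Col3a1 is printed whole. Capitals mark every match on either strand to CCAAT (the NF-Y box), GGGCGG (the GC box bound by Sp1), GTGGGAA (a site of RBPJ, the DNA-binding partner of Notch) or TATAAA (the TATA box), written as found.
Col3a1, chr1:45311288-45311537, plus strand: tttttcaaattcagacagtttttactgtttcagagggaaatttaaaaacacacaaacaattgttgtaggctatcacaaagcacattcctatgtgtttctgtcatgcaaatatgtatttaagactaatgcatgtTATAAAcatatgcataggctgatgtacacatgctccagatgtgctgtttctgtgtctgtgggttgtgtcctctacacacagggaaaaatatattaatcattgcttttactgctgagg
Col5a1, chr2:27886175-27886380, plus strand: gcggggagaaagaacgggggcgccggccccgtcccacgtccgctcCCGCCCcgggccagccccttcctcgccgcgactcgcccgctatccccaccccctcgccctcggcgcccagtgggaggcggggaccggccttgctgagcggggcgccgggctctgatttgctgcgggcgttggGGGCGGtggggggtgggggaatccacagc
Col5a3, chr9:20815118-20815317, minus strand: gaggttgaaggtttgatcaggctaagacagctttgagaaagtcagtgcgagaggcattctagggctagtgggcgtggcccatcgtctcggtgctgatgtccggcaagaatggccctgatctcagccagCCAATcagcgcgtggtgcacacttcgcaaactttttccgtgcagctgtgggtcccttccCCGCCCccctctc
Col11a1, chr3:114030290-114030478, plus strand: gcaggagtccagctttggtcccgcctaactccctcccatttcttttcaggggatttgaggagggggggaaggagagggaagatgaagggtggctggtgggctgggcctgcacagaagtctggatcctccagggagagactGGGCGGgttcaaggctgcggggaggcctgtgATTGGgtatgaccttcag
In the full 250 bases before the RefSeq start, the unprinted ones included, GTGGGAA or its reverse complement was found in 0 of the 7 matched members and in 5.41% of all 27025 RefSeq promoters. CCAAT was found in 3 of the 7, Col1a2, Col5a3 and Col11a1, and in 34.5% of all promoters. GGGCGG was found in 5, Col1a2, Col5a1, Col5a3, Col11a1 and Col27a1, and in 32.9% of all promoters. TATAAA was found in Col3a1 alone and in 13.0% of all promoters. The 4 printed stretches had no motif in common to all: Col5a1 had 2 GC boxes, Col5a3 and Col11a1 had 1 GC box and 1 CCAAT each, and Col3a1 had a single TATAAA. The Col3a1 sequence was also poor in G and C, at 35.2% over its 250 bases, against 77.7% over the 206 printed bases of Col5a1. The median over all promoters, each taken over the full 250 bases, was 52.0%. A match is a run of letters and not a measured binding site.

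Type I collagen, the main fibril-former, was measured through both of its chains. Col1a1 (chromosome 11) had 17082, 16409 and 15933 normalised counts in DAPT libraries 1 to 3, against 26814, 24523 and 22841 in vehicle libraries 1 to 3. It was thus lower in every DAPT library than in any vehicle library, by 1.50-fold (log2 change -0.58 with an SE of 0.0430, limma adjusted p = 3.27e-10). Col1a2 (chromosome 6), whose product joins a pair of Col1a1 chains in the usual type I helix, had 12972, 12567 and 12533 normalised counts in DAPT libraries, against 19611, 17568 and 16447 in vehicle libraries. The groups again did not overlap, and Col1a2 was 1.40-fold lower under DAPT (log2 change -0.49 with an SE of 0.0436, limma adjusted p = 8.47e-09).

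Col3a1 (chromosome 1), the single chain of type III collagen, which is abundant in elastic arteries, fell furthest among the abundant chains. Its normalised counts were 14769, 14891 and 14509.9 in DAPT libraries, against 26483, 24492 and 21765 in vehicle libraries. The DAPT values lay within a narrow band below all vehicle values, and the gene was 1.64-fold lower (log2 change -0.72 with an SE of 0.0459, limma adjusted p = 2.76e-11). By mean normalised count, which is not divided by length, Col1a1, Col3a1 and Col1a2 ranked 26, 30 and 51 among the 14906 tested genes. The 10 members together held 0.418% ± 0.00909 of all normalised counts in DAPT libraries and 0.621% ± 0.0484 in vehicle libraries (SD, n = 3 each), with no overlap between the groups.

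Type V collagen split between its chains. Col5a1 (chromosome 2), which carries a large amino-terminal domain that stays on the fibril surface, had 6552, 6290.0 and 6439 normalised counts in DAPT libraries, against 8969, 8626 and 7943 in vehicle libraries. It was 1.32-fold lower without overlap (log2 change -0.40 with an SE of 0.0379, limma adjusted p = 2.07e-08), the smallest change among the 7 called members. Col5a2 (chromosome 1), the partner chain of Col5a1 in the common form of type V, had 2909, 2802 and 2794 normalised counts in DAPT libraries, against 4247, 4025 and 4051 in vehicle libraries. It was 1.45-fold lower, also without overlap (log2 change -0.53 with an SE of 0.0348, limma adjusted p = 3.38e-11). Col5a3 (chromosome 9), a minor type V chain with a more restricted expression, stood apart from both. Its normalised counts were 237, 239 and 235 in DAPT libraries, against 262, 249.8 and 221 in vehicle libraries, so that the DAPT values lay inside the vehicle range. The log2 change was -0.04 with a 95% interval of -0.21 to 0.12 (limma adjusted p = 0.776), an interval that does not reach the change of Col5a1 or Col5a2.

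The chains known from cartilage and bone were far less abundant. Col11a1 (chromosome 3), which helps to set the width of cartilage fibrils and can also combine with type V chains, had 18.0, 23.1 and 28.7 normalised counts in DAPT libraries, against 44.2, 56.4 and 48.7 in vehicle libraries. All DAPT values were below all vehicle values, and Col11a1 was 2.12-fold lower, the largest change among the 9 tested members (log2 change -1.08 with an SE of 0.204, limma adjusted p = 0.000422). Its call rests on few reads, 70 over the DAPT libraries and 149 over the vehicle libraries. Col24a1 (chromosome 3) had 88.1, 96.8 and 89.1 normalised counts in DAPT libraries, against 165, 172 and 141 in vehicle libraries, which was 1.73-fold lower without overlap (log2 change -0.79 with an SE of 0.109, limma adjusted p = 7.95e-06).

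Col27a1 (chromosome 4) was near the filter, at 15.2, 25.3 and 21.8 normalised counts in DAPT libraries and 30.1, 22.8 and 21.3 in vehicle libraries. The groups overlapped, and the log2 change of -0.26 had a 95% interval of -0.77 to 0.25 (limma adjusted p = 0.538), so neither no change nor a fall like that of Col1a1 could be told apart from it at this depth. Without DAPT replicate 1 the log2 change was -0.06, without vehicle replicate 1 it was -0.11, and without DAPT replicate 2 it was -0.41. Col2a1 (chromosome 15), the main collagen of cartilage, had 3.79, 4.21 and 3.96 normalised counts in DAPT libraries, against 11.3, 7.21 and 10.6 in vehicle libraries. These stand for 4, 4 and 4 reads against 12, 6 and 12 reads. The DAPT values were all lower, but Col2a1 did not meet the filter, and when no filter was applied its log2 change of -1.08 had a limma adjusted p of 0.0874. The authors' deposited table gave the same 7 members an adjusted p below 0.05, from 4.66e-33 for Col5a2 to 0.00166 for Col11a1, and gave Col2a1 0.332, Col5a3 1 and Col27a1 1. Of the 9 tested members, 7 had no overlap between the groups, all with DAPT lower, and the untested Col2a1 had none either. Among all tested genes 33.3% had no overlap in either direction and 16.4% had it with DAPT lower.

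**Figure D2:**
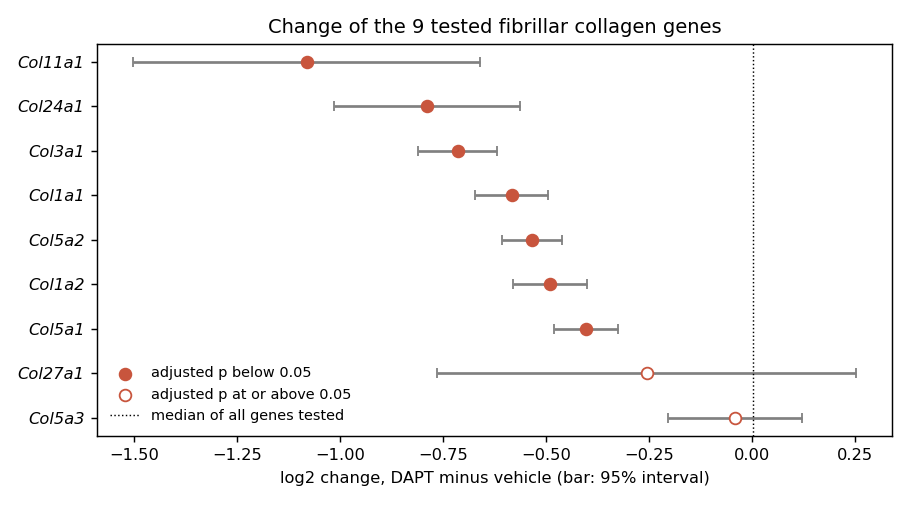
Log2 change (DAPT minus vehicle) from limma for the 9 tested fibrillar collagen genes, with the 95% interval as a grey bar; filled circles passed an adjusted p of 0.05, open circles did not, and the dotted line is the median of all genes tested. The 7 called genes lie between -1.08 and -0.40, while the intervals of Col27a1 and Col5a3 include 0.

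Levels of different chains can be compared only per length of transcript. Divided by the length of the longest protein-coding GENCODE M21 transcript, Col1a1 stood at 2778 ± 97.4 normalised counts per kb under DAPT, followed by Col3a1 at 2646 ± 34.9, Col1a2 at 2373 ± 45.7, Col5a1 at 765 ± 15.6, Col5a2 at 428 ± 9.71 and Col5a3 at 38.7 ± 0.335 (SD, n = 3). In vehicle Col3a1 came first at 4358 ± 426 normalised counts per kb, then Col1a1 at 4170 ± 336, Col1a2 at 3342 ± 300, Col5a1 at 1013 ± 62.2, Col5a2 at 620 ± 18.3 and Col5a3 at 40.0 ± 3.44. Below these, Col24a1, Col11a1, Col27a1 and Col2a1 followed in that order in both groups, with Col11a1 at 3.04 ± 0.699 and Col27a1 at 2.72 ± 0.674 per kb under DAPT. In vehicle the means of Col3a1 and Col1a1 differed by less than their spread over libraries, although Col3a1 was the higher within each vehicle library. The means of Col11a1 and Col27a1 under DAPT also differed by less than their spread. As shares of the summed per-kb level of the 10 genes, Col3a1 made up 29.3% ± 0.466 under DAPT and 32.1% ± 0.604 in vehicle. Col1a2 made up 26.2% ± 0.172 under DAPT and 24.6% ± 0.311 in vehicle, and Col5a1 made up 8.45% ± 0.166 under DAPT and 7.47% ± 0.197 in vehicle. The share of Col1a1 was 30.7% ± 0.475 under DAPT and 30.7% ± 0.176 in vehicle. These shares are tied to one another, since a fall in one raises the rest.

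Ratios between chains, taken within each library, remove any factor that scales a whole library. The 8 ratios join chains of one helix, chains of one fibril or neighbouring genes, and were compared between groups by an exact two-sided permutation test, in which 3 against 3 libraries cannot go below p = 0.1. In 7 of the 8 the groups did not overlap, each with an exact p of 0.1, or 0.114 adjusted over the 8 ratios, and so none passed a threshold of 0.05. The ratio of Col1a1 to Col1a2 per kb was 1.19, 1.18 and 1.15 in DAPT libraries, against 1.23, 1.26 and 1.25 in vehicle libraries, a log2 difference of -0.09. Relative to Col1a2, Col1a1 fell by 6.22%. With the gene lengths of the deposited table the level of this ratio was 2.89 ± 0.0528 under DAPT and 3.08 ± 0.0332 in vehicle (SD, n = 3 each), because that table gives Col1a2 a length of 16097 bases, against 5348 for its longest coding transcript. The change between groups does not depend on the length used.

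Col3a1 fell further than Col1a1 in these libraries, and their ratio did not overlap between the groups. The permutation test cannot decide on this difference, since with so few libraries no ratio could pass it. The ratio of Col3a1 to Col1a1 per kb was 0.921, 0.967 and 0.971 in DAPT libraries, against 1.05, 1.06 and 1.02 in vehicle libraries. The log2 difference was -0.13. Col3a1 was thus the lower of the pair in each DAPT library and the higher in each vehicle library on the scale of transcript length. On the deposited lengths Col3a1 was the lower of the pair in both groups, at 0.747 ± 0.0215 under DAPT and 0.819 ± 0.0200 in vehicle. Against Col5a2, the next protein-coding gene along chromosome 1, Col3a1 fell by a log2 difference of 0.18. The annotated spans of these neighbours do not overlap in RefSeq; the annotation used for counting was not examined.

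The ratios that include type V chains moved in different directions. The ratio of Col5a1 to Col1a1 per kb was 0.271, 0.270 and 0.285 in DAPT libraries, against 0.236, 0.248 and 0.245 in vehicle libraries, a log2 difference of 0.18. The ratio of Col5a2 to Col5a1 had a log2 difference of -0.13. Col5a3 had the largest rise relative to its partner: its ratio to Col5a1 per kb was 0.0497, 0.0522 and 0.0501 in DAPT libraries, against 0.0402, 0.0398 and 0.0383 in vehicle libraries, a log2 difference of 0.36. The DAPT ratios were 28.5% higher on average, while the level of Col5a3 itself did not pass the test. The ratio of Col11a1 to Col5a1 per kb went the other way, at 0.0030, 0.0040 and 0.0049 in DAPT libraries, against 0.0054, 0.0072 and 0.0067 in vehicle libraries, a log2 difference of -0.68. The ratio of Col27a1 to Col1a1 overlapped between the groups, with a log2 difference of 0.33 (exact two-sided permutation p = 0.4).

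**Figure D3:**
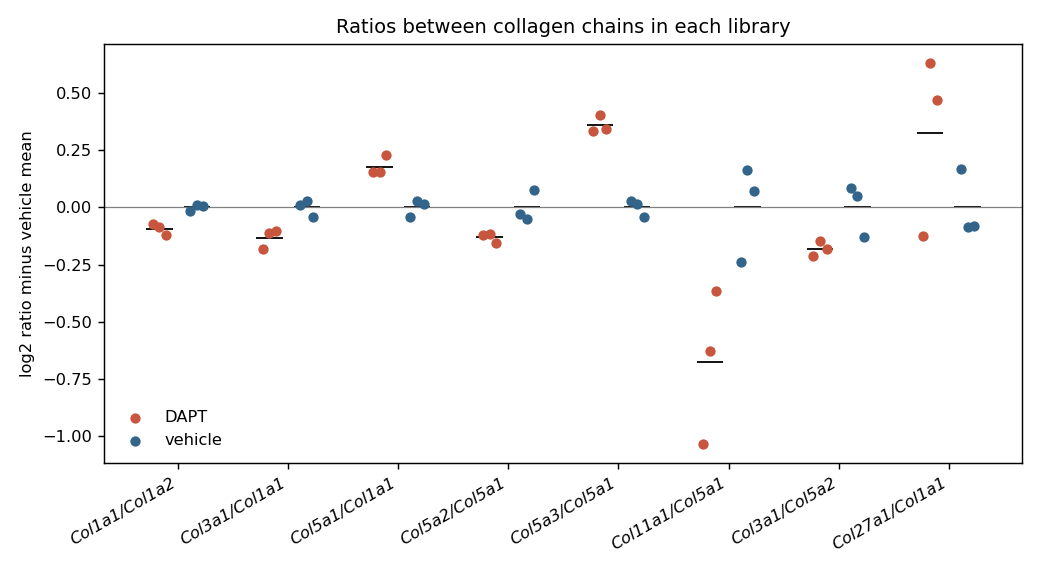
Log2 ratio between 2 collagen chains in each library, minus the vehicle mean of that ratio, for the 8 ratios; points are libraries (DAPT left, vehicle right) and black bars are group means. Col5a3/Col5a1 and Col5a1/Col1a1 lie above all vehicle libraries, 5 ratios lie below them, and Col27a1/Col1a1 overlaps.

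Within the vehicle group most members were high in library 1 and low in library 3. Vehicle library 1 was above the group mean in 8 of the 9 tested members, the exception being Col11a1, and vehicle library 3 was below it in all 9. The median deviation of the members was 0.11 in vehicle library 1, 0.02 in vehicle library 2 and -0.12 in vehicle library 3 on the log2 scale. The median over all tested genes was near 0 in each, which the scaling of the libraries brings about. How many genes outside the family shared this order was not counted. Adamts2, at 5531, 5264 and 4792 in vehicle libraries 1 to 3, did, but it was picked for its likeness to the members, as described below. The DAPT libraries had median member deviations of 0.0046, 0.012 and -0.018. The coefficient of variation of Col3a1 was 1.32% over DAPT libraries and 9.77% over vehicle libraries, and that of Col5a3 was 0.865% over DAPT libraries and 8.60% over vehicle libraries. In Col11a1 the order was the opposite, at 23.0% over DAPT libraries and 12.4% over vehicle libraries. These differences in spread were not tested. The summed normalised counts of the 10 members were 52588 to 54647 in DAPT libraries and 73489.7 to 86636 in vehicle libraries, so the lowest vehicle library, library 3, was still above every DAPT library. All 7 calls held when any 1 library was left out.

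**Figure D4:**
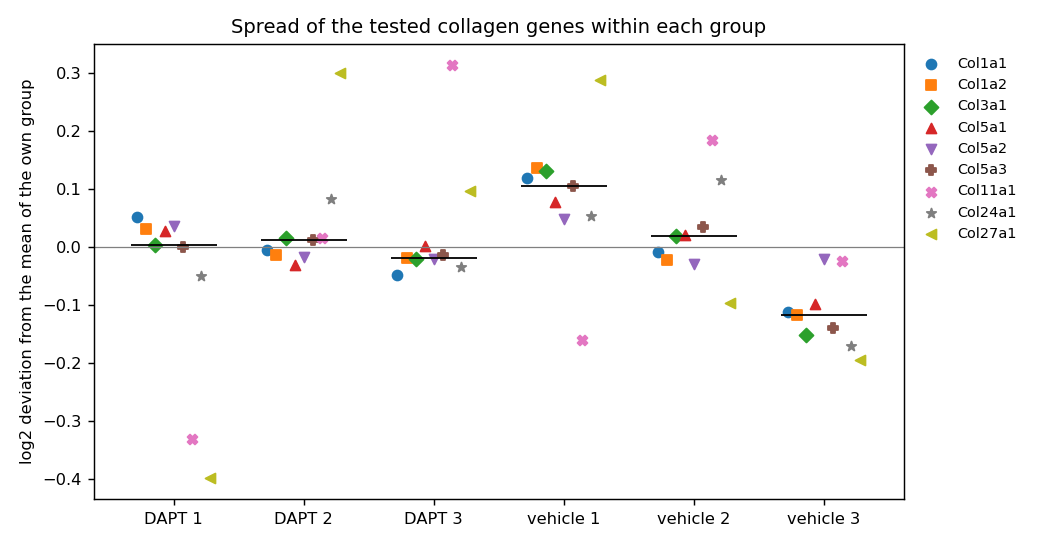
Log2 deviation of each of the 9 tested fibrillar collagen genes from the mean of its own group, by library, with a black bar at the median of the 9 genes. Vehicle 1 lies mostly above 0 and vehicle 3 below 0 for all 9 genes, while the abundant chains of the DAPT libraries stay near 0.

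The enzymes and chaperones that make fibrillar collagen fell with it in large part. Of 23 tested genes for chain modification, folding, export and propeptide removal, 17 were lower, 1 was higher and 5 did not pass, with a median log2 change of -0.21. With DESeq2 on the reads of 5 libraries 11 of them were lower. The largest falls were those of Adamts3, an amino-propeptide protease known for type II collagen, at 36.3 ± 6.60 normalised counts under DAPT and 62.1 ± 8.17 in vehicle (limma adjusted p = 0.00262), and of the prolyl 4-hydroxylase subunit P4ha3, at 299 ± 8.39 under DAPT and 469 ± 24.6 in vehicle (limma adjusted p = 3.77e-08). Leprel1, a prolyl 3-hydroxylase, was 1.43-fold lower. Pcolce2, an enhancer of carboxy-propeptide removal, was the 1 that rose (without vehicle replicate 3 the list had 2 higher), at 326 ± 33.7 under DAPT and 225 ± 29.2 in vehicle (limma adjusted p = 0.000113).

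Genes for cross-linking enzymes and for proteins on the fibril surface were mostly lower. Of 18 tested, 15 were lower, 2 were higher and 1 did not pass, with a median log2 change of -0.42. Lox, the lysyl oxidase that starts the cross-linking of collagen, was 2.40-fold lower, and Fmod, a proteoglycan that binds type I fibrils, was 2.36-fold lower. Tnxb, a tenascin that binds fibrils, rose to 2241 ± 86.1 normalised counts under DAPT, against 1819 ± 169 in vehicle, and Aebp1, a collagen-binding secreted protein, rose to 24515 ± 87.2 under DAPT, against 22490.2 ± 193 in vehicle (limma adjusted p = 5.95e-05 and 0.00566). Of these genes Col12a1, Col14a1 and Col16a1 are also counted among the non-fibrillar collagens.

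Receptors and proteases did not move as a block. Of 8 tested collagen receptors 3 were lower, 1 was higher and 4 did not pass, with a median log2 change of -0.02. Itga11, the integrin subunit that favours type I collagen, was 2.38-fold lower, at 24.7 ± 7.79 normalised counts under DAPT and 59.2 ± 11.8 in vehicle. Itga1 was 1.46-fold lower. The paired tyrosine kinase receptors for collagen moved apart: Ddr1 was 1.34-fold lower and Ddr2 1.18-fold higher (limma adjusted p = 3.36e-09 and 3.49e-05). Among 8 tested genes for degradation and its inhibitors, 3 were lower, 2 were higher and 3 did not pass, with a median log2 change of 0.01. Timp3, an inhibitor of matrix proteases, was 1.92-fold lower and Fap, a serine protease of the fibroblast surface, 1.69-fold lower. Ctsk, the collagen-degrading cathepsin K, was 1.29-fold higher and Mmp14, a membrane-bound collagenase, 1.09-fold higher. The Mmp14 call was lost without DAPT replicate 3 (limma adjusted p = 0.0898).

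Transcription factors and signals known to act on collagen genes were mostly not called. Of 19 tested, 3 were lower, 1 was higher and 15 did not pass, with a median log2 change of 0.04. The ligands Tgfb2 and Tgfb3 were 1.47-fold and 1.45-fold lower and the factor Cebpb 1.20-fold lower, while the receptor Tgfbr1 rose by 15.5%. Collagens that do not form fibrils were mostly lower as well. Of 21 tested, 15 were lower and 6 did not pass (edgeR on 5 libraries called 1 higher), with a median log2 change of -0.47, beside -0.53 for the 9 fibrillar members. Col8a2 and Col8a1, chains of the network collagen of blood vessels, were 2.09-fold and 1.62-fold lower, the basement membrane chain Col4a2 1.61-fold lower and Col6a2, of the beaded filaments, 1.55-fold lower. These lists are described by counts beside the 8.91% of all tested genes called lower and the 9.22% called higher.

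**Figure D5:**
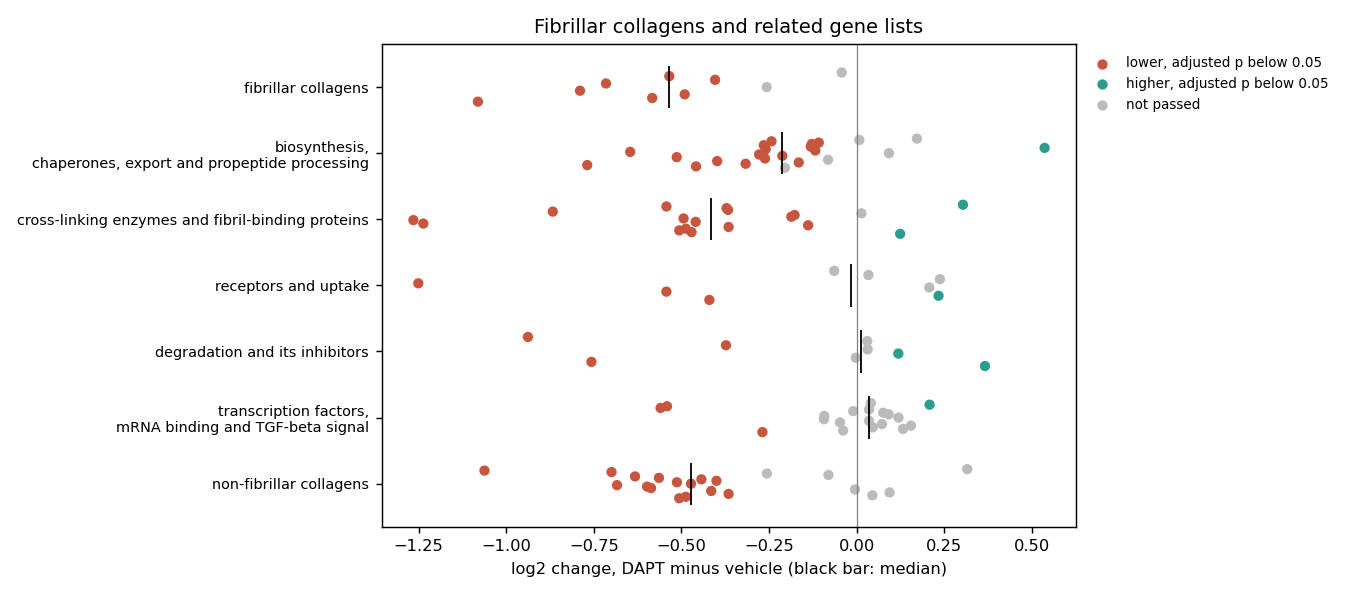
Log2 change (DAPT minus vehicle) of each tested gene in the fibrillar collagens and in 6 lists of related genes, with a black bar at each list's median; red points were called lower, green points higher and grey points did not pass. The medians of both collagen groups and of the cross-linking list lie at -0.42 or below, and those of the receptor, degradation and signal lists lie between -0.02 and 0.04.

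The 5 genes outside the family whose log2 values ran closest to the mean profile of the 9 tested members over the 6 libraries were Bcl6, Adamts2, Adamts5, F2rl1 and Shroom2, with Pearson correlations of 0.999, 0.998, 0.997, 0.997 and 0.997. All points share the contrast between the groups, so these values describe a likeness over 6 libraries and carry no test. Adamts2, the protease that removes the amino-propeptide of type I and type III procollagen, had 3776 ± 93.9 normalised counts under DAPT and 5196 ± 374 in vehicle. Its log2 change of -0.46 lay between those of Col5a1 and Col1a2.

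The cells carried smooth muscle markers at uneven levels, and of 9 tested 3 were lower and 6 did not pass. Beside this and the marker counts below, 8.91% of all tested genes were called lower and 9.22% higher. Acta2 was at 252 ± 26.3 normalised counts under DAPT and 520 ± 50.8 in vehicle, Myh11 at 47.1 ± 3.99 under DAPT and 49.2 ± 4.28 in vehicle, and Myocd, a master regulator of the contractile state, at 0.330 ± 0.572 under DAPT and 0.400 ± 0.693 in vehicle. Of 13 markers of adventitial fibroblasts, which also make fibrillar collagen, 8 were lower, 2 were higher and 3 did not pass. Their summed level ran from 49615 to 51711 in DAPT libraries and from 48411 to 52129 in vehicle libraries. Most of that sum was Gsn, Ly6a, Dcn and Cd34, of which Gsn and Ly6a were higher, Dcn was lower and Cd34 did not pass. Less abundant markers weigh little in it, such as Igf1, at 922 ± 28.0 under DAPT and 2031 ± 284 in vehicle. Dcn, Lum and Col14a1 of these markers are also in the lists above. Of 8 tested mesothelial markers 6 were lower and 2 did not pass, and the sum of all 11 ran from 2445 to 2578 in DAPT libraries and from 4680.2 to 4763 in vehicle libraries. Krt8, Krt18 and Muc16 lay below the filter. The part of either cell type in the fall of the collagens was not tested. Of the endothelial markers 4 were tested and none was called in limma, with a sum of all 8 from 609 to 632 in DAPT libraries and from 594 to 655 in vehicle libraries. Most of that sum was Kdr, at 529 ± 14.2 under DAPT and 541 ± 18.1 in vehicle, followed by Tek, Vwf and Erg, while Pecam1 stood at 2.66 ± 0.609 under DAPT and 2.52 ± 1.20 in vehicle, and Cdh5, Emcn and Tie1 also lay below the filter. Of the macrophage and leukocyte markers 3 were tested, of which 1 was higher and 2 did not pass. The sum of all 6 ran from 419.8 to 435 in DAPT libraries and from 347 to 400.0 in vehicle libraries. Cd68 rose to 218 ± 2.53 under DAPT, against 178 ± 11.96 in vehicle (limma adjusted p = 0.0148), and Csf1r was at 190 ± 9.15 under DAPT and 175 ± 18.2 in vehicle. Ptprc and Itgam lay below the filter and Emr1 was at 0 in all 6 libraries. The part of these cells in the fall of the collagens was not tested. Among 8 chondrocyte markers with a row, Sox9 was the only one that met the filter, and it rose to 843 ± 32.2 under DAPT, against 599 ± 39.6 in vehicle (limma adjusted p = 1.97e-07). Hapln1 was at 0 in all libraries.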

How the data were processed

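RNA was measured by sequencing in 3 DAPT and 3 vehicle libraries. Per the labels' protocols, the TruSeq sample kit from Illumina was used on total RNA. The submitters' processing notes name the build mm9 and, with no role for any, DESeq 1.16.0, HTSeq 0.5.4p3 and TopHat2 2.0.4. Neither the annotation nor the use of strand is given in these sources. Column letters C and I were read as control and inhibitor. The authors deposited a signal per gene that equals the read count divided by 1 size factor per library. Within 0.01 reads, 100% of nonzero values gave whole reads, with totals of 10702548 to 14503665 reads. DAPT library 3 was left out of the count tests, since its size factor of 1.01 is too near 1 for recovery to be checked. The authors also deposited a log2 ratio and an adjusted p-value per gene, by a test that neither labels nor headers name.

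The main test was limma 3.58.1 (R 4.3.3, intensity trend) on log2(normalised count + 1), as a two-sided test of DAPT minus vehicle with p adjusted (Benjamini-Hochberg) over all 14906 genes with at least 10 in at least 3 libraries. A fold change on this scale understates the change of low genes. Alternatives were other pseudocounts, filters and scalings, a replicate block, robust empirical Bayes, each library left out, and edgeR 4.0.16 and DESeq2 1.42.0 on the reads of 5 libraries. The procedure was tested on simulated data. Named genes were the members, up to 4 called genes per list from the ends of its range, and the 5 closest profiles. Members, lists and tests were chosen with earlier results of these data known.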

Additional observations from a re-analysis of the deposited data

How the results depend on the processing

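All 7 fibrillar collagen calls kept their direction and passed the threshold under every alternative that tested them. Under robust empirical Bayes the limma adjusted p of Col1a1, Col1a2 and Col3a1 rose to 0.00046, 0.0014 and 0.0026. In the main fit these were 3.27e-10, 8.47e-09 and 2.76e-11. Those of Col5a1 and Col5a2 fell to 4.17e-10 and 1.20e-13. With a filter of 50 Col11a1 was no longer tested, which left 6 calls. No member was called higher under any alternative in limma, edgeR or DESeq2. Without vehicle replicate 1 the log2 change of Col5a3 turned to 0.010, and over the fits without 1 library it ran from -0.11 to 0.010. Col5a3 was not called in any fit, with an adjusted p of at least 0.40 in each limma, edgeR and DESeq2 alternative. That of Col27a1, also not called, ran from -0.41 to -0.06 over the same fits. All 8 ratios kept their sign with the pseudocounts 0.5 and 5 and without any 1 library. DESeq2 on 5 libraries called 445 genes higher and 537 lower, against 1375 and 1328 in limma on all 6 libraries. On the same 5 libraries, without DAPT replicate 3, limma called 965 higher and 991 lower, and edgeR 957 higher and 988 lower. DESeq2 gave 1734 genes no adjusted p. It no longer called Adamts3 (adjusted p = 0.0826), Mmp14 (adjusted p = 0.206) or Tgfbr1 (adjusted p = 0.0980). Mmp14 was also lost in edgeR (adjusted p = 0.106). The causes were not tested.

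The labels do not say whether the replicate numbers pair the libraries. Over all tested genes, deviations of same-numbered libraries correlated at 0.0267, -0.0175 and 0.0099. With 3 libraries per group these values cannot decide whether the libraries were paired. With the replicate block limma called 1396 genes higher and 1336 lower, and again 7 members. An alternative chosen after seeing the data replaced transcript length by the deposited gene length, and Col1a1 to Col1a2 then stood at 2.89 under DAPT and 3.08 in vehicle, and Col3a1 to Col1a1 at 0.747 under DAPT and 0.819 in vehicle. Depth limits Col2a1, Col11a1 and Col27a1, which had 12, 70 and 62 reads over the DAPT libraries.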

Other observations

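Col11a2, a type XI chain that is also a fibrillar collagen but lies outside the 10 members, was looked up after the other values had been seen. It had 19.9, 11.6 and 23.8 normalised counts in DAPT libraries, against 16.9, 25.2 and 33.6 in vehicle libraries. The groups overlapped, and the log2 change of -0.44 did not pass (limma adjusted p = 0.320).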
